A study of Saccharomyces cerevisiae with 6 samples.

Results

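The 8 genes described here are the nitrogen GATA regulators of budding yeast (GLN3, GAT1, DAL80 and GZF3), their inhibitor URE2, and the ammonium permeases MEP1, MEP2 and MEP3. They were chosen by name and each matched 1 of the 6416 rows of a table of transcript levels. The table compares 3 RNA-seq libraries of Saccharomyces cerevisiae expressing NdeltaCit1-DS/AA (replicates 1 to 3) with 3 libraries expressing NdeltaCit1-DS/AA-H/G (replicates 4 to 6), hereafter DS/AA and DS/AA-H/G strains. Both groups are strain BY4741, a laboratory strain of mating type a, fed galactose alone as carbon in synthetic complete medium, and both carry a form of the citrate synthase Cit1 without its mitochondrial presequence. The labels name the groups by these forms and do not spell out the substitutions, and the sources used here do not give the promoter, the vector or the number of clones behind each strain. The labels also do not say whether the replicates were separate cultures, so the p-values measure the spread between these libraries, which may be technical.

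GATA factors are zinc finger proteins that bind GATAAG in the promoters of genes for the uptake and breakdown of poorer nitrogen sources. Gln3 and Gat1 activate these genes, while Dal80 and Gzf3 compete for the same sites and repress them. With a rich nitrogen source the TORC1 kinase and Ure2 keep Gln3 in the cytoplasm, a state known as nitrogen catabolite repression; when nitrogen becomes limiting, Gln3 and Gat1 enter the nucleus. The Mep proteins carry ammonium across the plasma membrane. Mep2 has the highest affinity and also acts in the signal for filamentous growth, and Mep3 has the lowest affinity. Only RNA was measured here, so the amount and location of the proteins are unknown.

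The hexamer GATAAG, or its reverse complement CTTATC on the other strand, stood in the 500 bases before the start codon of 7 of the 8 genes, against 22.7% of the 6316 protein-coding genes with such a window. MEP2 held 7 copies, and no other window held as many. MEP3 held 5, GAT1 4, DAL80 and GZF3 3 each, MEP1 2 and GLN3 1, and URE2 held 0. Copies can overlap, as 3 of those of GAT1 do, where each shares a base with the next. Of all windows, 3.48% held 2 or more copies and 0.190% held 4 or more. A match is a run of letters and not a known binding site, and a window without a match says nothing about binding. Most of these copies lie in the following stretches, printed because genes with several copies changed by very unequal amounts. They are from RefSeq's R64 genome, 5′ to 3′ on the gene's own strand, with the hexamer in capitals in either orientation. The first group is the regulators, with DAL80 at chrXI:506598-506687 (plus strand), GAT1 at chrVI:95706-95765 (plus strand), GZF3 at chrX:211708-211767 (minus strand) and GLN3 at chrV:229405-229434 (plus strand).
DAL80: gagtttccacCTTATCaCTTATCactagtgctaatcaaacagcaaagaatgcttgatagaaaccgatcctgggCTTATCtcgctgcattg
GAT1: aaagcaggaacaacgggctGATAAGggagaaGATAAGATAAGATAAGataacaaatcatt
GZF3: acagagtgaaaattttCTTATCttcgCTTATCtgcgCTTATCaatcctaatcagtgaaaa
GLN3: gacgcgcagtaaGATAAGattgaagccggc

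The permeases are shown for the same reason, with MEP1 at chrVII:733228-733307 (minus strand), MEP2 at chrXIV:356983-357142 (plus strand) and MEP3 at chrXVI:812889-812953 (minus strand). The stretch of MEP2 holds 6 of its 7 copies and that of MEP3 holds 3 of its 5.
MEP1: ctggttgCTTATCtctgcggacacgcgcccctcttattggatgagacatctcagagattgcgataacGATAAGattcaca
MEP2: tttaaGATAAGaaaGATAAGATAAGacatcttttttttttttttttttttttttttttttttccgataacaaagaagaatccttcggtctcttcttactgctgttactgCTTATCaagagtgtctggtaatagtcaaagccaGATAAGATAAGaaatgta
MEP3: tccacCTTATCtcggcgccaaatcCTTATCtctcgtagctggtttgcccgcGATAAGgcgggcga

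In GAT1 the 4 copies stand on the gene's strand between 241 and 214 bases before the start codon. In GZF3 all 3 stand on the opposite strand, between 174 and 149 bases before it, and in DAL80 all 3 do so between 290 and 222 bases before it. The permeases have copies in both orientations.

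**Figure D1:**
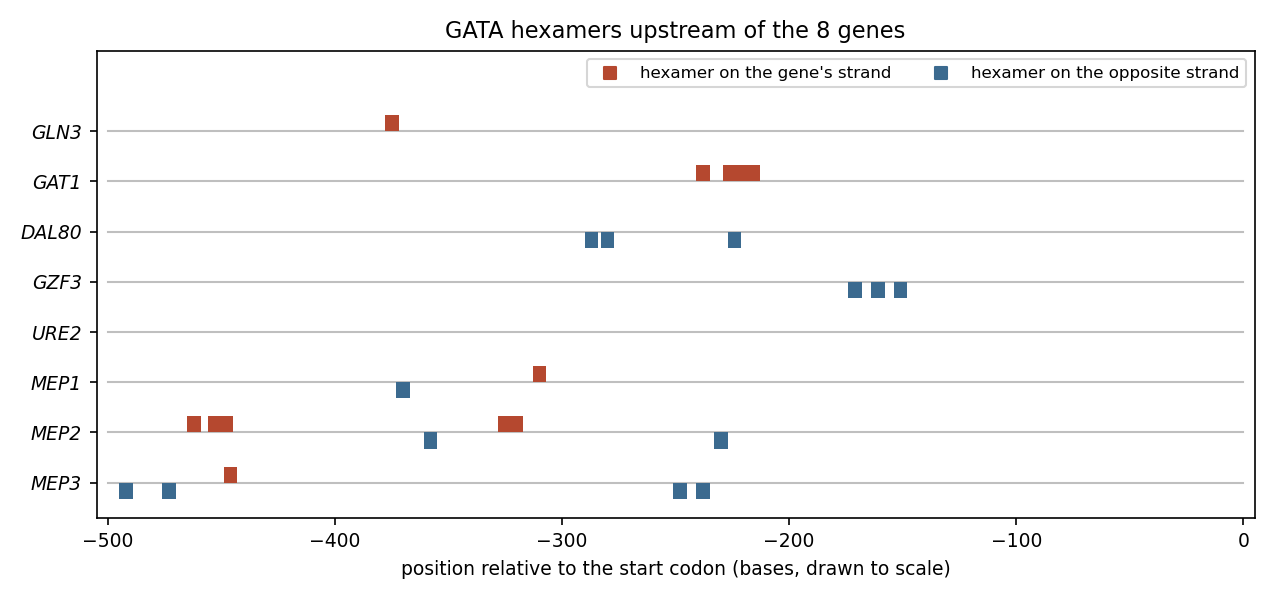
Positions of the hexamer in the 500 bases before the start codon of each gene, in bases from the start codon; marks above a line are on the gene's strand and marks below it on the opposite strand, and touching marks overlap or adjoin. MEP2 has 7 copies, MEP3 5, GAT1 4, DAL80 and GZF3 3 each, MEP1 2, GLN3 1 and URE2 0.

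Values are called scaled counts here, because their pattern was read as estimated read counts divided by a factor for each library. The scaling method is not given. On that reading each library held 30277564 to 32702577 estimated reads. A gene is said to rise or fall where limma's Benjamini-Hochberg adjusted p, over all 6197 genes tested, was under 0.05. A change is the difference in mean log2(value + 1), with DS/AA-H/G subtracted from DS/AA, and is given with its standard error (SE). There were 3 libraries in each strain. As a check of the labels, the row of CIT1 was at 522165 ± 23866 in DS/AA, against 1205728 ± 11966 in DS/AA-H/G (SD), and URA3, a common selection marker, at 16114 ± 871 in DS/AA, against 40821 ± 234 in DS/AA-H/G. The form expressed and the amounts of the CIT1 and URA3 transcripts therefore cannot be told apart in any result here. Of the mating type markers, STE2 of a cells averaged 11210 in DS/AA, against 17212 in DS/AA-H/G, and STE3 of alpha cells 487 in DS/AA, against 392 in DS/AA-H/G. The very short a-factor transcripts were low, with MFA1 at 2.33 in DS/AA, against 5.98 in DS/AA-H/G, and MFA2 at 6.61, against 13.3. The alpha-factor gene MF(ALPHA)1 was above both, at 63.3 in DS/AA, against 50.1 in DS/AA-H/G. MF(ALPHA)2 was near 0, at 1.01 in DS/AA, against 0.34 in DS/AA-H/G. The pheromone genes thus did not mark the cells as mating type a, while STE2 stood above STE3.

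All 8 genes were higher in DS/AA than in DS/AA-H/G, and for each the lowest DS/AA library was above the highest DS/AA-H/G library. All 8 passed the test. Among all genes tested, 22.1% were called higher and 27.8% had all DS/AA libraries above all DS/AA-H/G libraries. The median change of the 8 was 0.44, against 0.01 over all genes, and their changes ran from 0.12 for URE2 to 1.60 for DAL80. For 5 of the 8 the difference was under 1.5-fold. The share of genes called higher moved with the scaling, to 16.7% under quantile normalization (1034 higher; 1778 or 28.7% lower) and 29.7% with equal column totals (1841 higher; 747 or 12.1% lower), against 1368 higher and 1222 (19.7%) lower as deposited. Of the 8 genes, 7 were called under quantile normalization and 8 with equal column totals, all higher. In the authors' deposited table, 8 of these 8 rows had q under 0.05 and a positive log2 ratio, as did 22.2% of all rows.

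**Figure D2:**
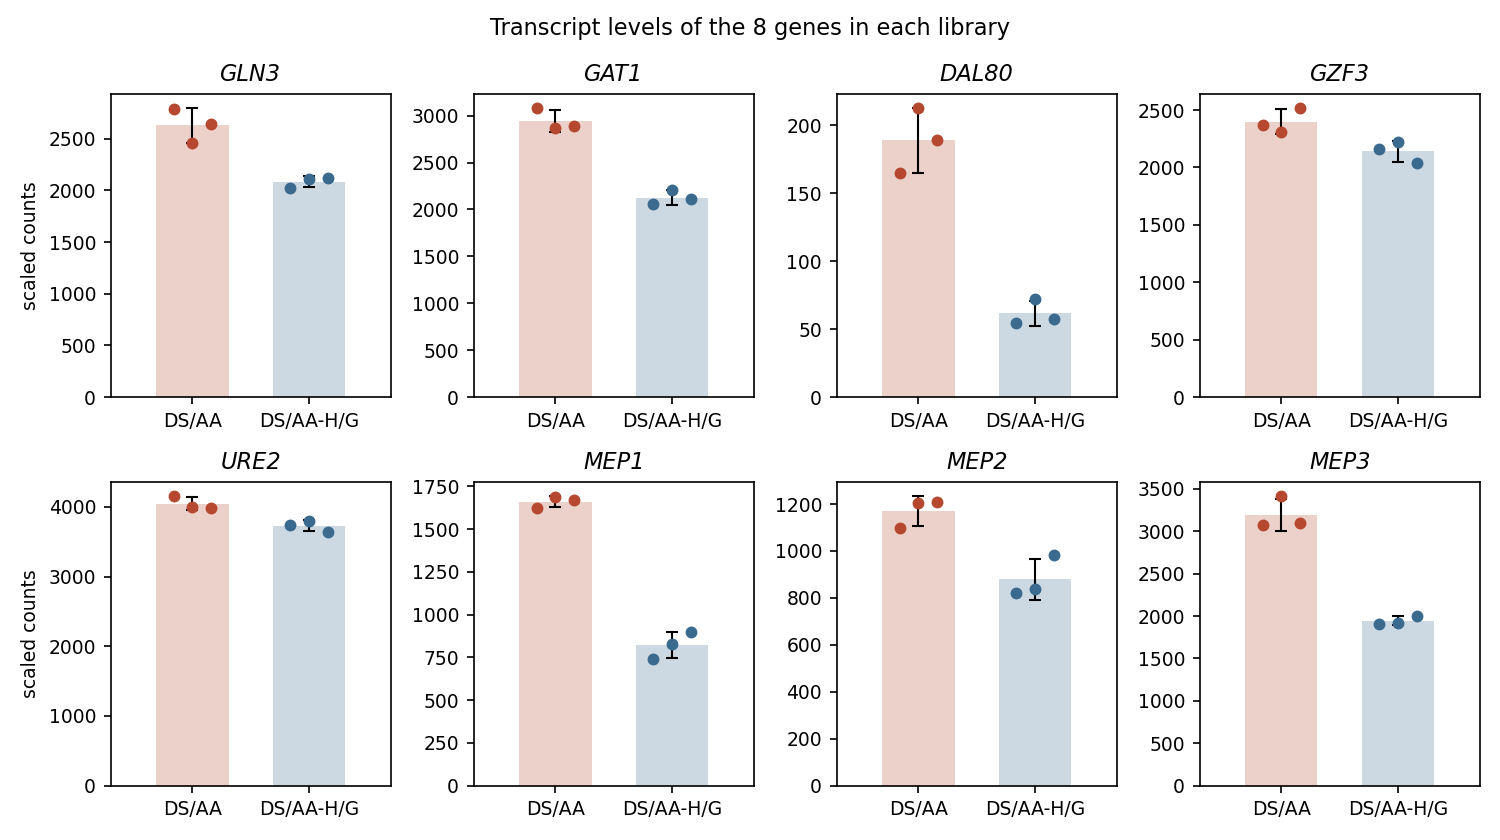
Scaled counts of each gene in each library (points; replicates 1 to 3 on the left and 4 to 6 on the right of each panel), with the mean (bar) and SD (error bar) of 3 libraries; each panel has its own scale from 0. In every panel the DS/AA points lie above the DS/AA-H/G points, with the widest relative gap for DAL80 and MEP1 and the narrowest for URE2 and GZF3.

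The activator genes rose moderately. GLN3 (YER040W, chromosome V, 229795 to 231987, plus strand) stood at 2789, 2454 and 2642 scaled counts in DS/AA, against 2021, 2107 and 2119 in DS/AA-H/G. DS/AA replicate 2 was the lowest of its group and still above every DS/AA-H/G library. The change was 0.33 ± 0.05 (SE), or 1.26-fold, and the limma adjusted p 0.000205. GAT1 (YFL021W, chromosome VI, 95966 to 97498, plus strand), whose promoter holds the overlapping copies shown above and which is itself known as a target of GATA factors, stood at 3081, 2865 and 2893 in DS/AA, against 2061, 2210 and 2108 in DS/AA-H/G. Each strain's 3 libraries lay close together, with an SD of 118 in DS/AA, against 76.6 in DS/AA-H/G. GAT1 rose by 0.47 ± 0.04, or 1.39-fold (limma adjusted p = 4.97e-06). A reading frame on the opposite strand, YFL021C-A, overlaps GAT1 over 650 nt but held only 16.3 to 24.1 scaled counts in any library.

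The repressor genes differed from each other in size of change. DAL80 (YKR034W, chromosome XI, 506898 to 507707, plus strand), known to be strongly induced through GATA sites when nitrogen catabolite repression is relieved, had 165, 212 and 189 scaled counts in DS/AA, against 54.8, 72.2 and 57.6 in DS/AA-H/G. The lowest DS/AA library stood 92.6 above the highest DS/AA-H/G library, more than the level of any DS/AA-H/G library. DAL80 rose by 1.60 ± 0.16 (SE), or 3.04-fold. Its 95% interval was 1.26 to 1.95 on the log2 scale and its limma adjusted p 6.85e-06. It was the least abundant of the 8, with at least 162 estimated reads in each DS/AA library and 55.0 to 71.0 in each DS/AA-H/G library. Its relative SD was 12.6% in DS/AA, against 15.1% in DS/AA-H/G, where counting alone would give 7.23% for DS/AA and 12.8% for DS/AA-H/G. The overlapping frame YKR033C, on the opposite strand over 407 nt, held at most 5.09 scaled counts.

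GZF3 (YJL110C, chromosome X, 209922 to 211577, minus strand), which encodes the other GATA repressor, differed little. It stood at 2370, 2312 and 2518 in DS/AA, against 2164, 2221 and 2043 in DS/AA-H/G. The gap between the strains was 91.3 scaled counts, close to the SD of DS/AA (106) and that of DS/AA-H/G (90.9). The change was 0.16 ± 0.05, or 1.12-fold (limma adjusted p = 0.0158). It was not called under quantile normalization (0.12, limma adjusted p = 0.0596), by limma without trend and robust moderation (adjusted p = 0.0539), without DS/AA replicate 3 (0.13, adjusted p = 0.0628) or without DS/AA-H/G replicate 6 (0.13, adjusted p = 0.0695).

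URE2 (YNL229C, chromosome XIV, 219137 to 220201, minus strand), which encodes the cytoplasmic anchor of Gln3 and is known as the protein of the [URE3] prion, had the smallest change. It stood at 4151, 4005 and 3983 in DS/AA, against 3738, 3801 and 3647 in DS/AA-H/G. The strains did not overlap, but the change was only 0.12 ± 0.04, or 1.09-fold (limma adjusted p = 0.0222). It was not called without DS/AA replicate 1 (0.10, adjusted p = 0.0627), without DS/AA-H/G replicate 4 (0.12, adjusted p = 0.0517) or without DS/AA-H/G replicate 6 (0.10, adjusted p = 0.0819). Without DS/AA-H/G replicate 6, 6 of the 8 genes were called in all, the lowest number over the alternatives.

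All 3 ammonium permease genes rose, in the order MEP1, MEP3 and MEP2 by size of change. MEP1 (YGR121C, chromosome VII, 731449 to 732927, minus strand) stood at 1626, 1687 and 1668 scaled counts in DS/AA, against 742, 829 and 896 in DS/AA-H/G. The DS/AA libraries lay close together, and the gap to the highest DS/AA-H/G library was 730. MEP1 rose by 1.02 ± 0.07 (SE), or 2.02-fold. Its 95% interval was 0.87 to 1.16 and its limma adjusted p 1.94e-07. Of all genes tested, 3.5% were called higher by at least 1 on the log2 scale, as MEP1 and DAL80 were.

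MEP3 (YPR138C, chromosome XVI, 810984 to 812453, minus strand), which encodes the low-affinity permease, stood at 3075, 3411 and 3099 in DS/AA, against 1912, 1917 and 2004 in DS/AA-H/G. DS/AA replicate 2 was the highest, as it was for DAL80 and MEP1. MEP3 rose by 0.72 ± 0.05, or 1.64-fold (limma adjusted p = 2.55e-07). MEP2 (YNL142W, chromosome XIV, 357453 to 358952, plus strand), the high-affinity permease gene and the one with most GATAAG copies, had 1099, 1204 and 1208 in DS/AA, against 822, 837 and 981 in DS/AA-H/G. DS/AA-H/G replicate 6 stood above the other DS/AA-H/G libraries and 118 below the lowest DS/AA library. MEP2 rose by 0.41 ± 0.07, or 1.33-fold (limma adjusted p = 0.000710). The coding sequences of MEP1 and MEP3 are 70.6% identical over aligned bases and those of MEP1 and MEP2 54.6%, and no stretch of 100 nt or more at 95% identity links any of the 8 genes to a gene elsewhere in the genome.

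**Figure D3:**
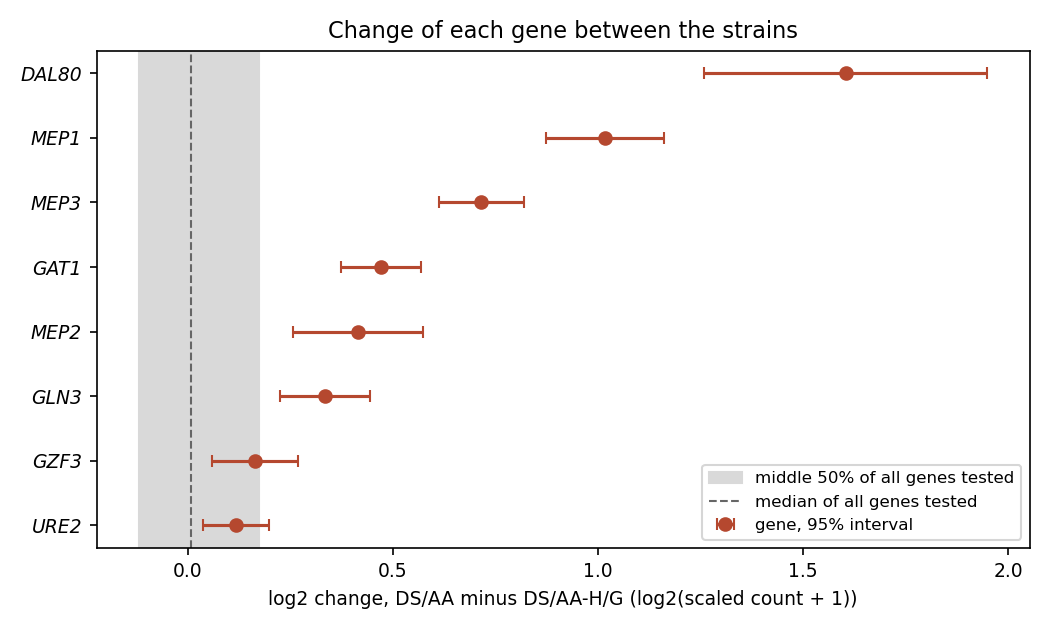
Change of each gene in mean log2(scaled count + 1), with DS/AA-H/G subtracted from DS/AA, and limma's 95% interval; the grey band is the middle 50% of all genes tested (-0.12 to 0.17) and the dashed line their median. DAL80, MEP1 and MEP3 lie farthest to the right, and GZF3 and URE2 have their estimates inside the band.

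To compare genes with one another, scaled counts were divided by coding length in kb. URE2 was the most abundant in both strains, at 3799 ± 85.8 per kb in DS/AA, against 3501 ± 72.7 per kb in DS/AA-H/G (SD). DAL80 was the least abundant, at 233 ± 29.4 per kb in DS/AA, against 76.0 ± 11.5 per kb in DS/AA-H/G. Between them the order in DS/AA was MEP3, GAT1, GZF3, GLN3, MEP1 and MEP2, in which only the ranges of GLN3 and MEP1 overlapped among neighbours. In DS/AA-H/G it was GAT1, MEP3, GZF3, GLN3, MEP2 and MEP1, in which the neighbours GAT1 and MEP3, MEP3 and GZF3, and MEP2 and MEP1 overlapped. In DS/AA, MEP1 at 1123 ± 20.9 per kb was above MEP2 at 780 ± 41.4 per kb. In DS/AA-H/G, MEP1 at 556 ± 52.2 per kb and MEP2 at 587 ± 58.4 per kb overlapped.

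The summed level of the 3 permeases was 3924, 4263 and 4042 per kb in DS/AA, against 2350, 2423 and 2623 per kb in DS/AA-H/G, a 1.65-fold ratio of means. MEP1 made up 28.0%, 26.7% and 27.9% of it in DS/AA, against 21.3%, 23.1% and 23.1% in DS/AA-H/G. MEP2 made up 18.7%, 18.8% and 19.9% in DS/AA, against 23.3%, 23.0% and 24.9% in DS/AA-H/G. MEP3 held the largest share in each strain, at 53.3% ± 1.13 in DS/AA, against 53.7% ± 1.68 in DS/AA-H/G (SD). The groups did not overlap for MEP1 and MEP2, whose exact two-sided permutation p was 0.1, the smallest that 3 against 3 libraries allow, and 0.15 after adjustment over the 3 shares. For MEP3 the groups overlapped and the exact permutation p was 0.8, also after adjustment. Its difference was -0.40 percentage points, and it was 0.16 without DS/AA replicate 3 and 0.41 without DS/AA-H/G replicate 4.

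Per kb, the balance of activator to repressor transcripts overlapped between the strains. The log2 ratio of GLN3 and GAT1 summed to DAL80 and GZF3 summed, per kb, was 1.01, 0.85 and 0.82 in DS/AA, against 0.72, 0.75 and 0.84 in DS/AA-H/G. The difference of means was 0.12, and its exact permutation p (two-sided) was 0.2. Without DS/AA replicate 1 the difference was 0.06. Without division by length the difference was 0.17 and the exact permutation p was 0.1. Within the repressors, DAL80 amounted to 14.2%, 18.8% and 15.3% of GZF3 per kb in DS/AA, against 5.18%, 6.64% and 5.77% in DS/AA-H/G, with no overlap (exact permutation p = 0.1).

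**Figure D4:**
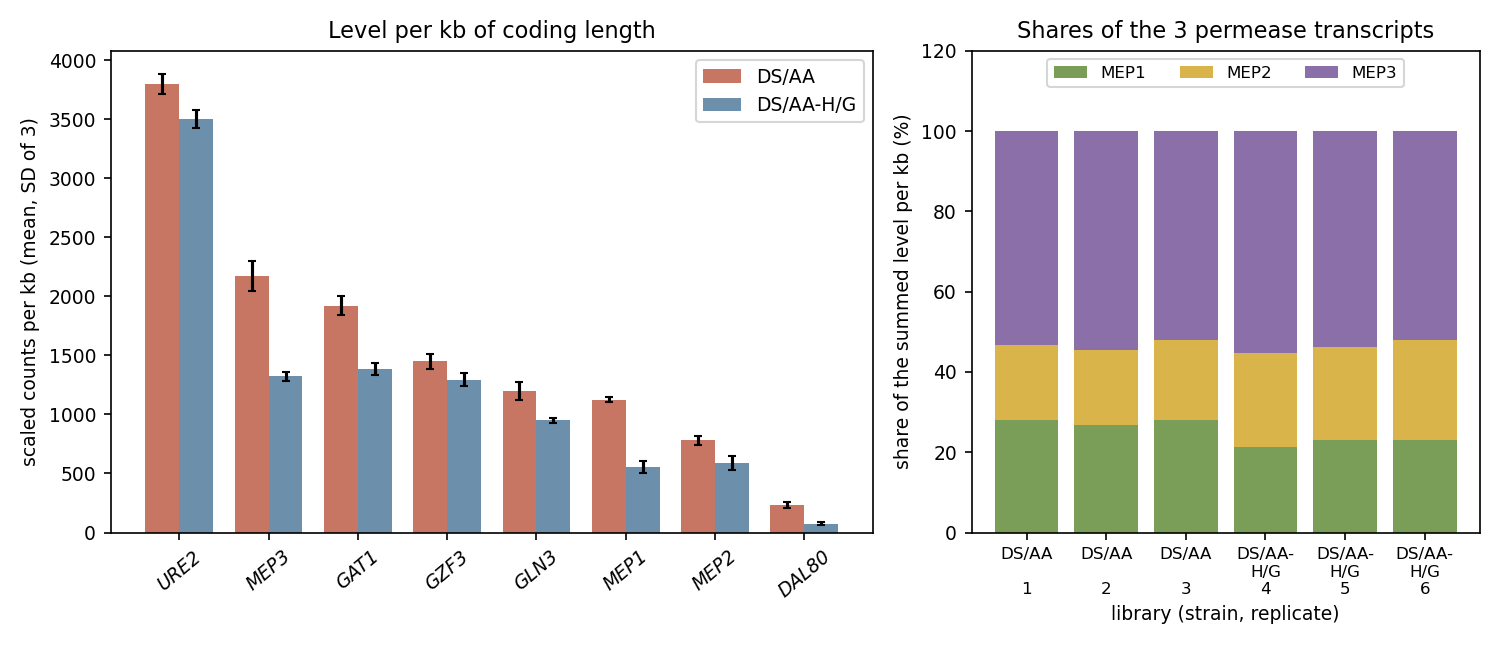
Left, level of each gene per kb of coding length (bars, mean; error bars, SD of 3 libraries), ordered by the DS/AA mean; right, share of MEP1, MEP2 and MEP3 in their summed level per kb in each library. MEP1 takes 26.7% to 28.0% in DS/AA, against 21.3% to 23.1% in DS/AA-H/G.

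Genes downstream of the GATA factors were mixed, with more rises than falls. Of 28 targets of nitrogen catabolite repression listed, 27 were tested, of which 15 rose (55.6%, against 22.1% of all genes) and 4 fell (19.7% of all genes fell), with a median change of 0.20. Under quantile normalization the median was 0.12, and 11 rose and 5 fell, where 16.7% of all genes rose and 28.7% fell. With equal column totals 15 rose and 3 fell, where 29.7% of all genes rose and 12.1% fell. AGP1, a broad amino acid permease gene, averaged 12728 ± 386 scaled counts in DS/AA, against 5015 ± 350 in DS/AA-H/G (SD), a 2.54-fold difference. GAP1, the general amino acid permease gene and a frequent reporter of Gln3 activity, averaged 3114 ± 170 in DS/AA, against 1508 ± 103 in DS/AA-H/G, or 2.07-fold. The arginase gene CAR1 and the ornithine transaminase gene CAR2 rose by 1.04 and 1.03 on the log2 scale, and PUT4, for the proline permease, by 0.88. PTR2, a peptide transporter gene, fell to 1231 ± 77.5 in DS/AA, against 2241 ± 191 in DS/AA-H/G (log2 change -0.86), and DIP5, for an acidic amino acid permease, changed by -0.59 and also fell. Within the allantoin genes, chosen after their values were seen, DAL2, DAL3, DAL5 and DAL7 rose by 0.50, 0.69, 0.20 and 0.23, while DAL1 and DAL4 did not pass (0.09 and 0.35).

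Of 5 genes of ammonium assimilation, of which GDH2 is also among those targets, 4 rose (80.0%, against 22.1% of all genes), with a median of 0.36. GDH1, the main glutamate dehydrogenase gene that fixes ammonium, averaged 61332 ± 949 scaled counts in DS/AA, against 38549 ± 1127 in DS/AA-H/G (SD). GLN1, for glutamine synthetase, averaged 36753 ± 1085 in DS/AA, against 24962 ± 303 in DS/AA-H/G, and GLT1, for glutamate synthase, rose by 0.36 on the log2 scale.

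Among regulators of permease activity, 2 of 5 rose (40%, against 22.1% of all genes) and 1 fell (19.7% of all genes fell). The median was 0.06, and it was 0.12 with equal column totals, 0.03 without DS/AA replicate 1 and 0.04 without DS/AA-H/G replicate 6. PAR32, also called AMU1, whose product inhibits Mep1 and Mep3, averaged 5446 ± 105 in DS/AA, against 4706 ± 235 in DS/AA-H/G, a log2 change of 0.21. NPR1, for a kinase needed for Mep activity, rose by 0.18. PSR2, a phosphatase gene, changed by -0.13 (limma adjusted p = 0.0244). This fall was not called with equal column totals (-0.08) or with equal totals without CIT1 (-0.11). It was also not called without trend and robust moderation, or in 5 of the 6 fits that left out a library.

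The 22 TORC1 and phosphatase genes upstream of Gln3 held 4 that rose (18.2%, against 22.1% of all genes). Only 1 fell (19.7% of all genes fell), and 17 were not called. The median was 0.04. It was -0.04 under quantile normalization, 0.10 with equal column totals, 0.07 with equal totals without CIT1 and 0.02 without DS/AA-H/G replicate 5. The number risen was 2 without trend and robust moderation. EGO4 rose by 0.63, TIP41, for a partner of the phosphatase regulator Tap42, by 0.26, and LST8, for a TORC1 subunit, by 0.24. EGO4 changed by 0.32 under quantile normalization, and LST8 was not called without trend and robust moderation (limma adjusted p = 0.0530). The fallen gene, named because it was the only one, was the phosphatase gene SIT4 (-0.11). No gene of the list fell with equal column totals, when CIT1 was left out of these totals, without trend and robust moderation, or without any one of DS/AA replicates 2 and 3 and DS/AA-H/G replicates 5 and 6. TOR1 and TOR2, named with their values already known, stood at -0.01 and 0.09 and did not pass.

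Of 13 pathway-specific and amino acid sensing regulators, 6 rose (46.2%, against 22.1% of all genes) and 0 fell (19.7% of all genes fell). The median was 0.12, and it was 0.03 under quantile normalization. UGA3, the activator of genes for GABA use, averaged 2611 ± 193 scaled counts in DS/AA, against 1568 ± 68.0 in DS/AA-H/G (SD), a 1.66-fold difference. STP2, for a factor activated by external amino acids, rose by 0.31 and PUT3, the activator of proline use, by 0.21.

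Of 6 other GATA family genes listed, 4 were tested, of which 0 rose (22.1% of all genes rose) and 2 fell (19.7% of all genes fell), with a median of -0.12. The median was -0.24 with a filter on a mean of at least 10, which removes GAT4, and -0.06 with equal column totals. ASH1, a daughter cell repressor, averaged 8274 ± 160 in DS/AA, against 9776 ± 205 in DS/AA-H/G, and SRD1 averaged 693 ± 30.7 in DS/AA, against 820 ± 38.4 in DS/AA-H/G. SRD1 changed by -0.24, by -0.39 under quantile normalization, and was not called without DS/AA-H/G replicate 5 (-0.21, limma adjusted p = 0.0556). GAT4 was near the floor, at 3.61 ± 0.50 in DS/AA, against 2.02 ± 0.96 in DS/AA-H/G, and did not pass (0.66, limma adjusted p = 0.336). GAT3 and ECM23 were at or near 0 in each library and were not tested.

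The 3 Ato genes, associated with ammonium export, were divided, with ATO2 risen (0.47), ATO3 fallen (-0.38) and ADY2 not called (-0.25). The 1 rise was 33.3% of the list, against 22.1% of all genes, and 1 fell (19.7% of all genes fell). Their median was -0.25, and it was -0.43 under quantile normalization, -0.07 without DS/AA replicate 1 and -0.16 without DS/AA-H/G replicate 5. Under quantile normalization ADY2 was called lower (-0.66, limma adjusted p = 0.0425) and ATO2 changed by 0.30, and without DS/AA replicate 1 ADY2 changed by -0.07. Of 9 genes of filamentous growth and protein kinase A, 2 rose (22.2%, against 22.1% of all genes) and 3 fell (19.7% of all genes fell). Their median was 0.00, between -0.09 under quantile normalization and 0.07 without DS/AA-H/G replicate 6. Only 1 fell with equal column totals or without any one of DS/AA replicate 3 and DS/AA-H/G replicates 5 and 6. GPA2, for a G protein alpha subunit, rose by 0.51 and TPK2, for a kinase subunit, by 0.19, while TEC1, for a filamentation factor, had a log2 change of -0.40 and fell. FLO11, the adhesin gene of filamentous growth, was at 696 ± 29.9 in DS/AA, against 701 ± 92.5 in DS/AA-H/G, and is named here with its values already known.

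**Figure D5:**
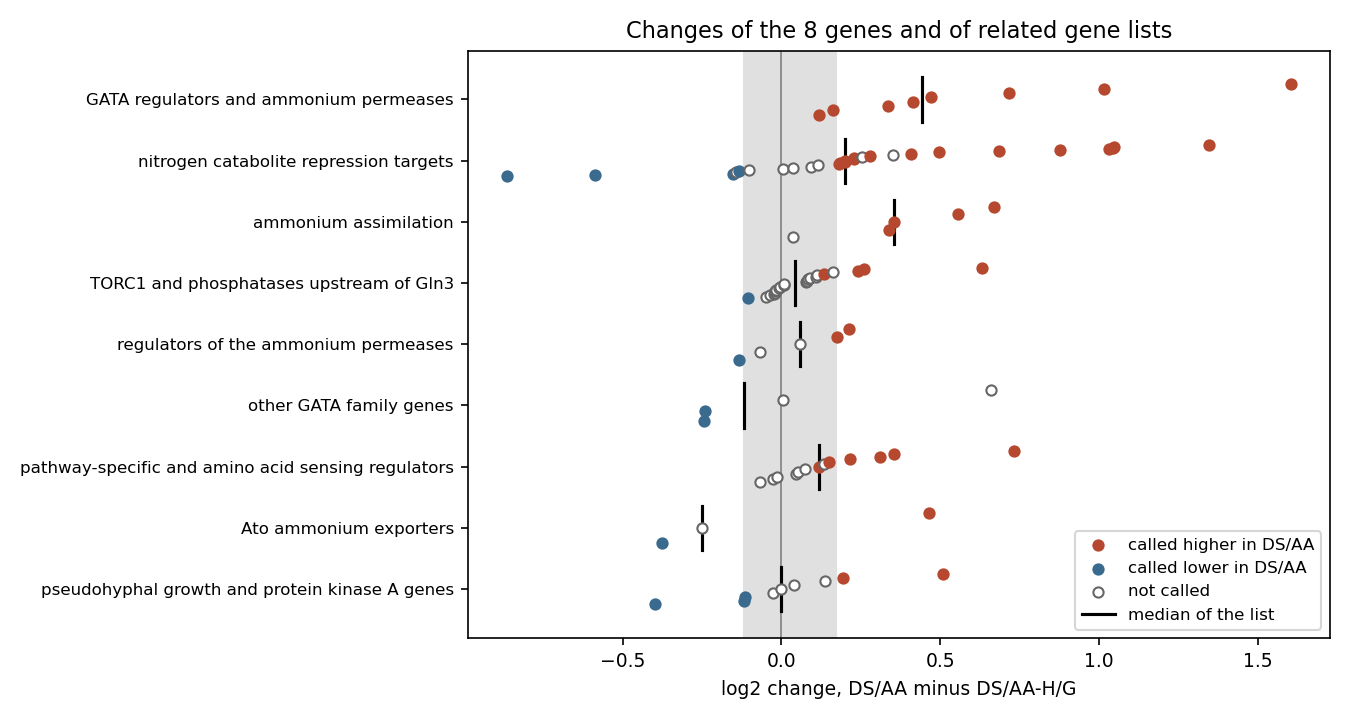
Log2 change, DS/AA over DS/AA-H/G, of each tested gene in each list, with red for genes called higher in DS/AA, blue for genes called lower and open circles for those not called; black bars are list medians and the grey band is the middle 50% of all genes tested. The 8 genes in the top row all lie above 0 with a median of 0.44, while the TORC1 list centres at 0.04.

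The genes most like DAL80, MEP1 and MEP3 across the 6 libraries were found by Pearson's r of the log2 values among 5399 other genes with a mean of at least 100. The points share their division into strains, and r was above 0.99 for 27 genes with DAL80, 79 with MEP1 and 120 with MEP3. DAL80 was closest to PSP1 (r = 0.9988), SSL1 (0.9986) and NSL1 (0.9980), whose own changes were 0.29, 0.10 and 0.22. SSL1 was not called under quantile normalization (0.06, limma adjusted p = 0.208) or with any 1 library left out. NSL1 was not called under quantile normalization (0.11, limma adjusted p = 0.104). MEP1 was closest to YMR317W (0.9988), YMR103C (0.9986) and YJL070C (0.9980), which changed by 4.72, 0.80 and 0.29. MEP3 was closest to the sterol synthesis gene ERG11 (0.9996), the glucan synthase gene GSC2 (0.9993) and the sterol gene ERG25 (0.9989), which changed by 0.95, 0.98 and 1.27. These values describe 6 libraries and carry no test.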

How the data were processed

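RNA of 6 libraries was sequenced. Per the labels' protocols, RNeasy columns gave the RNA and a directional NEBNext kit the libraries. Per the submitters' processing notes, the tools were Salmon 1.2.1, cutadapt 1.18, R 3.5.1 and bcl2fastq 2 and the build was R64. The sources used here do not give the settings, the strand option or the scaling method. The deposited table gives a signal per library, read from its values as estimated counts divided by 1 factor per library. In each library, 93.3% to 96.4% of values under 10 steps of its smallest frequent value, but only 36.5% to 44.0% of all values above 0, were whole multiples within 0.01, so no count model was applied. Further columns that the authors deposited hold a log2 ratio between strains, a q-value and p-value from an unnamed test, and the rank of each p-value.

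Values of at least 1 in at least 3 of 6 libraries were required, which left 6197 of 6416 rows. The log2(value + 1) of each was tested in limma 3.58.1 (R 4.3.3) with trend and robust moderation, and p-values were adjusted by Benjamini-Hochberg over all tested genes. The pseudocount understates the change of low genes such as DAL80. The scripts were tested on simulated data. Replicates differed by more than counting error (chi-square per gene 4.20 to 19.5 within a strain, 189 to 225 across), and all 6 libraries were kept as separate samples. Replicate numbers are not shared between strains, so samples were not paired. Alternatives covered the scaling, pseudocount, filter, moderation and each library left out.

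The 8 genes and the 8 gene lists were chosen with earlier results of these data known. Of 91 list names, 90 were found, some through RefSeq synonyms; the missing one, ASP3-1, was not analysed here. The text names, from each list, called genes with a log2 change of at least 1 and up to 3 others with the smallest p, plus the genes whose profile was most like that of each of the 8 that changed by at least 0.5; genes outside this rule are said to be chosen after their values were seen. Of the table's identifiers, 5811 matched RefSeq's R64 locus tags and 5802 had the same start and end, the 8 genes among them. The design foresaw ready promoter and protein tables; upstream windows were read from the R64 genome instead, and protein comparisons were not made. Coding spans were searched for copies with BLAST+ 2.17.0 and aligned with Biopython 1.88.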

Additional observations from a re-analysis of the deposited data

How the results depend on the processing

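The changes of the 8 genes and of the other genes named from the lists, the counts of called genes and the list medians were recomputed under 14 alternatives, or 13 for GAT4, which the stricter filter removes. The activator to repressor ratio and the permease shares were recomputed under 7. The ratio of DAL80 to GZF3, the summed permease level, motif counts, the order of levels, likeness and genes named outside the rule were not recomputed. The 8 genes kept a positive change in all 14. GLN3, GAT1, DAL80, MEP1, MEP2 and MEP3 were called in all 14, with log2 changes of 0.29 to 0.39 for GLN3, 0.43 to 0.53 for GAT1, 1.27 to 1.72 for DAL80, 0.92 to 1.08 for MEP1, 0.31 to 0.49 for MEP2 and 0.67 to 0.77 for MEP3. The low value of DAL80 came from quantile normalization. GZF3 was not called in 4 alternatives (0.12 under quantile normalization, 0.16 without trend and robust moderation) and URE2 in 3. With 1 library left out, GZF3 ranged from 0.13 to 0.19 and URE2 from 0.10 to 0.13, and the number of the 8 called from 6 to 8. The cause was not tested.

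With equal column totals, 747 genes were called lower over all genes. For the lists, quantile normalization gave 1 fall among pathway-specific regulators and 2 among the Ato genes. Equal column totals gave 0 falls for TORC1, 0 for regulators of the permeases and 1 for filamentous growth, equal totals without CIT1 gave 0 and 0 for the first pair, and limma without trend and robust moderation gave 2 rises and 0 falls for TORC1 and 0 falls for regulators of the permeases. With 1 library left out, falls ranged from 0 to 1 for TORC1, 0 to 1 for regulators of the permeases, 1 to 2 for other GATA genes and 1 to 3 for filamentous growth. The difference in the share of MEP3 was -0.40 percentage points and ranged from -1.27 to 0.41 with 1 library left out, so its sign is not fixed. Medians that moved by over 1.5 times are given beside the lists.

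No paired analysis was possible because the strains share no replicate number. Counting error limits DAL80 most, and with 3 libraries in each strain the exact tests cannot go below 0.1.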

Other observations

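The share of genes called higher in DS/AA was counted by the number of GATAAG copies upstream. Among tested genes, 20.8% of the 4711 with 0 copies in the 500 bases before the start codon were called higher and 21.0% lower. With 1 copy, 25.4% of 1178 genes were called higher and 17.2% lower, and with 2 copies 31.0% of 187 and 12.3%. With 3 copies 12 of 20 genes were called higher and 2 lower, and with 4 or more 6 of 12 were called higher and 3 lower. The share called higher was thus 60% with 3 copies and 50% with 4 or more, and the share called lower was 25% with 4 or more, above that of every other group. These shares carry no test, and genes that share an upstream region share copies. Among the genes with 3 or more copies, 5 are among the 8 described above, and all 5 were called higher. DAL3, GAP1, DAL4, UGA4, DAL7, DAL5, CAN1, DUR1,2 and DAL1 also have 3 or more and are listed targets of nitrogen catabolite repression. These targets were named after their values were seen, and DAL4, UGA4 and DAL1 were not called.

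The 12 genes with 4 or more copies include MEP2, MEP3, GAT1, GAP1, DAL3, DAL4 and UBI4, all with positive changes, of which DAL4 (0.35) was not called. TOS7 (0.11) and AIM6 (-0.08) were not called either. They also include the called falls MGA2 (-0.39), FCY21 (-0.36) and DSD1 (-0.15). These genes were named after their values were seen.

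Within the targets of nitrogen catabolite repression the medians lay close together. Of the 14 targets with 2 or more copies, 8 rose and 1 fell, with a median change of 0.22. Those with 0 or 1 copy were 13, of which 7 rose and 3 fell, with a median of 0.18. In the whole list 55.6% rose, while over all genes tested 22.1% rose and 19.7% fell. CAR1, CAR2 and PUT4, among the largest rises of that list, had 0 copies in the window.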
